A study of Mus musculus with 6 samples.

Results

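Tumour necrosis factor (TNF), its 2 receptors and 7 proteins that act just below those receptors were followed across 6 single-colour Agilent arrays of mouse macrophages and neutrophils. Among the 10 genes were Tnf, the receptors Tnfrsf1a and Tnfrsf1b, and the adaptors and kinase Tradd, Ripk1, Traf2 and Traf1. The others were the ubiquitin ligase Birc3 and the inhibitors Tnfaip3 and Cflar. All 10 were chosen by name, as every gene probe that the files label with one of these symbols. This gave 16 of 55681 probes, and 10 of the 34741 genes that the probes represent. All 16 probes were well above background on all 6 arrays, so no level of these 10 genes is a bound.

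All mice were C57BL/6 by label, and were either wild type (WT, TIARP+/+) or deficient (KO, TIARP-/-) for TIARP. The gene of TIARP is Steap4, and it encodes an enzyme that reduces metal ions at membranes. Each genotype gave 1 array of peritoneal macrophages elicited with thioglycollate for 3 days, 1 array of such macrophages kept with TNFα for 24 h, and 1 array of splenic Ly6G+ neutrophils isolated with magnetic beads. A time is labelled only for the arrays with TNFα, so a difference between arrays with and without it may also hold time in culture. The labels number the mice of each array 1 to 3, and the sources used here do not say whether their RNA was pooled. With 1 array per group, no difference within a condition or between conditions has a replicate check, and these are given as descriptions of the arrays. Genotype was also tested over the 3 conditions together, as given with the genotype results.

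TNF is made by activated macrophages and neutrophils as a membrane protein, and is released by the protease ADAM17. Its receptor TNFR1, from Tnfrsf1a, is made by most cells and gathers TRADD, RIPK1, TRAF2 and the cIAP ubiquitin ligases (one of them from Birc3) into a complex that turns on NF-kB. TNFR2, from Tnfrsf1b, is found mostly on blood cells and some other restricted cell types, and binds TRAF2 and TRAF1 directly. NF-kB in turn raises the genes for several proteins that hold the pathway back, among them A20 (Tnfaip3), which removes ubiquitin from the complex, and cFLIP (Cflar), which blocks caspase-8.

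The promoters of 3 of the 5 genes at least 2-fold higher with TNFα in both genotypes are shown, because NF-kB acts through short kB motifs. They are the 250 bases before the RefSeq start on GRCm38.p6, written 5′ to 3′ on the strand of the gene, and the capitals mark matches to the motifs searched.
Tnfaip3 (chr10:19015411-19015660, minus strand): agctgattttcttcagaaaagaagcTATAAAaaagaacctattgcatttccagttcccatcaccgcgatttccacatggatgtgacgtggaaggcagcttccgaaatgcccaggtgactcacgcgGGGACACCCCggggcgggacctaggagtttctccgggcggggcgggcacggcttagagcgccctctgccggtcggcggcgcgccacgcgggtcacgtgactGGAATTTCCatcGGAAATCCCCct
Tnf (chr17:35202008-35202257, minus strand): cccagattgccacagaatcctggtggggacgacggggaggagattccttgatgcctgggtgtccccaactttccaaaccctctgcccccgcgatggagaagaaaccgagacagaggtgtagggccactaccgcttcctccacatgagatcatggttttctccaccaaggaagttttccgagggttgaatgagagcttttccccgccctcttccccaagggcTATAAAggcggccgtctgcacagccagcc
Traf1 (chr2:34961773-34962022, minus strand): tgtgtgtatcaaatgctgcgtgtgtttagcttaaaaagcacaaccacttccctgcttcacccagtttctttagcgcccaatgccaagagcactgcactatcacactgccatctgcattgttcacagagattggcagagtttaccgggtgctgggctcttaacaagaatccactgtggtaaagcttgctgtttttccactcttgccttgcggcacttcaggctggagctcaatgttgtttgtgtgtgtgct
The motifs searched on both strands were the kB consensus, the letters GGNNTTTCC, which are a shorter form of it and can overlap it, and TATAAA, the box that sets the start of many genes. They were chosen after the values were seen. Tnfaip3 holds GGAATTTCC and GGAAATCCCC, which start 24 and 12 bases before the RNA start, the latter matching the consensus and the shorter form. A further match to the consensus starts 125 bases before it, and TATAAA starts 225 bases before it. Tnf holds TATAAA 29 bases before its start and neither kB form, and Traf1 holds none of the 3 motifs in this window. Birc3 and Cflar, also higher with TNFα in both genotypes but not printed, hold neither kB form in their windows. Of the 10 genes, 9 had a promoter entry, with 11 windows in all. Tradd is named only. The kB consensus was in 1 of the 11 windows, against 7.25% of 32851 mouse windows of the same length, and GGNNTTTCC in the same 1, against 4.93%. TATAAA was in 3, of Cflar, Tnfaip3 and Tnf, against 12.4%.

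Levels are given as scaled signal, which is the processed signal of a probe divided by the 75th percentile of its array. A value of 1 is therefore as bright as that percentile, and levels are comparable between arrays for 1 probe but not between probes. That percentile lay between 224 and 490 signal units, and 56.6% to 62.2% of probes were well above background. Across 314 probes with repeated spots, the SD between spots on 1 array had a median of 0.07 on the log2 scale, which is technical scatter and not that between mice. Steap4 read 0.357 on the WT and 0.203 on the KO array of macrophages without TNFα, 0.114 and 0.0379 with TNFα, and 0.211 and 0.161 in neutrophils. It was lower on every KO array than on its WT counterpart, though past 2-fold only with TNFα, where the KO array was not well above background and the WT array was at least 3.00-fold higher. All 10 macrophage markers and all 9 neutrophil markers were well above background on every array. Their summed scaled signal was 1119 to 1349 and 172 to 483 on the macrophage arrays, and 587 and 377 (macrophage) and 2313 and 2734 (neutrophil) on the WT and KO neutrophil arrays. The neutrophil arrays also held B cell markers, at a summed 547 and 512 against 4.79 to 19.7 on the macrophage arrays. In such bulk RNA, fewer cells of a type and less RNA per cell cannot be told apart.

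On the probe that represents each gene, the one with the highest mean signal, the gene that differed most over the 6 arrays was Tnfrsf1b, whose highest array was 34.2-fold above its lowest, followed by Traf1 at 10.2-fold. Tnfaip3 spanned 7.29-fold, Birc3 5.97-fold, Cflar 5.77-fold and Tnf 5.67-fold. Ripk1, Traf2 and Tnfrsf1a spanned 2.21-fold, 2.12-fold and 2.03-fold. Tradd, the adaptor that first docks on TNFR1, spanned 1.31-fold. This order depends on the probe, since the second probes of Traf2 and Birc3 spanned 5.86-fold and 9.89-fold.

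**Figure D1:**
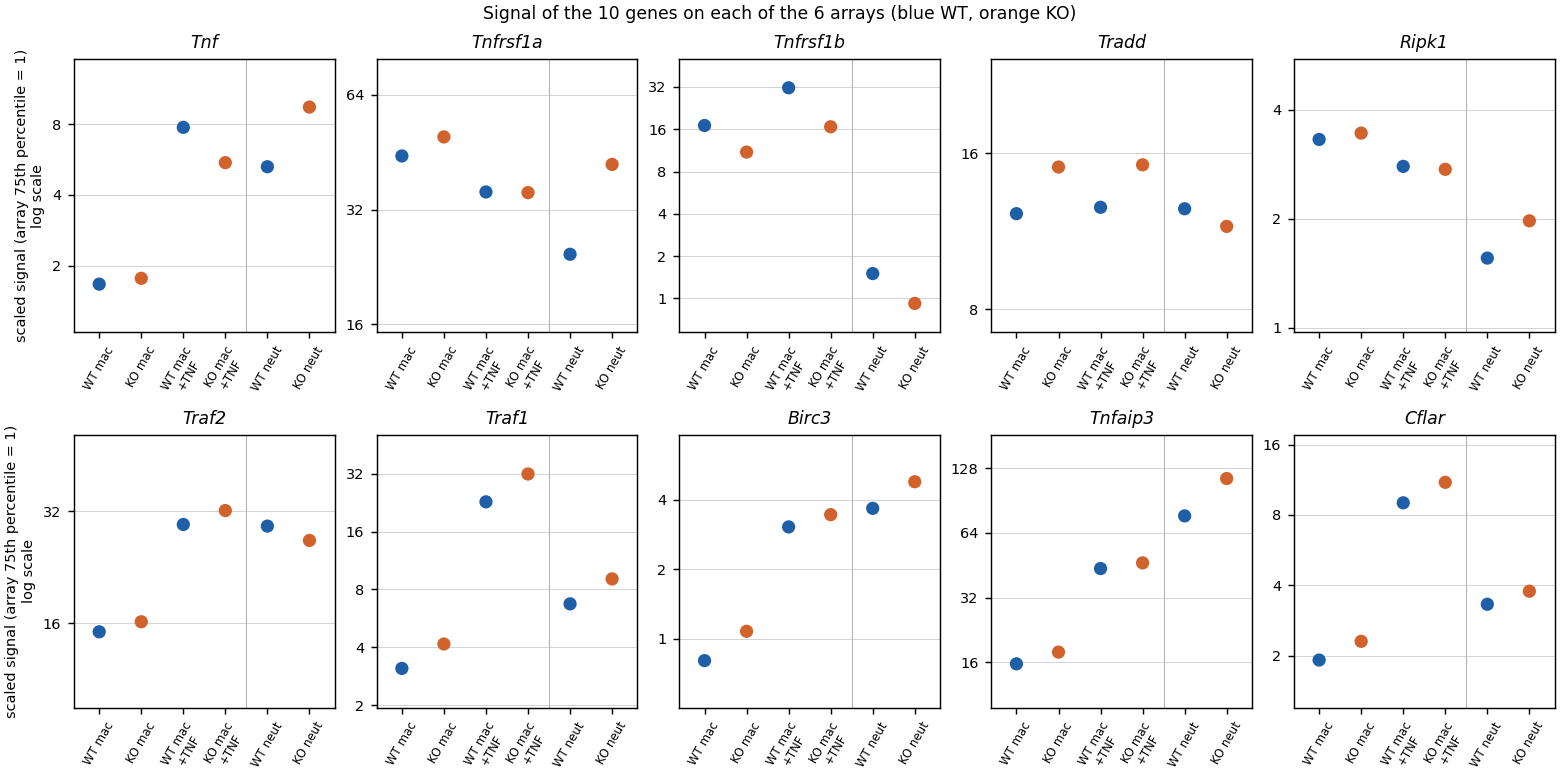
Scaled signal (log2 axis; processed signal over the array's 75th percentile) of the 10 genes on each of the 6 arrays, 1 point per array, with WT and KO side by side. Tnfrsf1b is lowest on both neutrophil arrays, at 1.50 and 0.922, while Tnfaip3 is highest there, at 76.8 and 115.

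With TNFα, 5 of the 10 genes were called higher and 0 lower in WT macrophages, where called means a log2 difference of at least 1 in size. In WT macrophages 4.4% of all 24626 genes tested were called higher and 4.59% lower. In KO macrophages 5 of 10 were called higher and 0 lower as well, against 4.43% and 3.68% of 24049 genes. The 5 were the ligand Tnf, the adaptor Traf1, the ubiquitin ligase Birc3 and the inhibitors Tnfaip3 and Cflar in both genotypes. The median log2 difference of the 10 genes was 1.22 in WT and 1.19 in KO macrophages, beside 0.02 and 0.04 over all genes tested.

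Tnf itself was measured by 1 probe in 10 spots, at chr17:35336795-35336854 of mm9. In macrophages without TNFα its scaled signal was 1.67 ± 0.028 (SD over 8 usable spots of that array) in WT and 1.77 ± 0.085 (9 spots) in KO cells. With TNFα it was 7.76 ± 0.268 (10 spots) in WT and 5.49 ± 0.114 (8 spots) in KO cells. In neutrophils it was 5.27 ± 0.078 (9 spots) in WT and 9.46 ± 0.213 (9 spots) in KO cells. Tnf was thus low on both arrays of macrophages without TNFα and higher on the other 4, and the KO array was the lower of its pair with TNFα and the higher in neutrophils. With TNFα the level was 4.65-fold higher in WT and 3.11-fold higher in KO macrophages. The difference between those 2 log2 differences was -0.58, which was not called and lay at percentile 3.0 of the genes tested for it.

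Neither receptor was called with TNFα. TNFR1's gene Tnfrsf1a (chr6:125312376-125312435, 10 spots) read 44.3 and 49.7 on the WT and KO arrays of macrophages without TNFα, 35.6 and 35.5 with TNFα, and 24.4 and 42.1 in neutrophils. The WT neutrophil array was the lowest and the other 5 lay within a narrower range, with log2 differences for TNFα of -0.31 in WT and -0.49 in KO macrophages. Its second probe (chr6:125311922-125311981) read 9.06, 9.91, 7.49, 7.10, 5.07 and 8.54 in the order used above, which puts the WT neutrophil array lowest again. TNFR2's gene Tnfrsf1b (chr4:144802359-144802418) read 17.0 in WT and 11.0 in KO macrophages without TNFα, 31.5 and 16.7 with TNFα, and 1.50 and 0.922 in neutrophils. Its level with TNFα was thus higher than without in both genotypes, by 0.89 and 0.60 on the log2 scale. These values lay at percentiles 94.8 and 89.2 of all genes tested.

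Of the adaptors and the kinase, Traf1 was called with TNFα, and Traf2, Tradd and Ripk1 were not. Traf1 (chr2:34798882-34798941), an adaptor with no RING domain that pairs with TRAF2, read 3.11 and 4.17 on the WT and KO arrays without TNFα, 22.8 and 31.8 with TNFα, and 6.73 and 9.08 in neutrophils. It was 7.33-fold higher with TNFα in WT and 7.64-fold higher in KO macrophages, which placed it at percentiles 99.4 and 99.6 of all genes tested. Traf2 (chr2:25374386-25374445), the adaptor that brings the cIAPs to the receptors, read 15.2 and 16.1 without TNFα, 29.5 and 32.1 with it, and 29.2 and 26.7 in neutrophils. Both macrophage arrays without TNFα were thus low and the other 4 arrays close together, and the differences with TNFα were 1.94-fold and 1.99-fold, just short of the 2-fold rule. Tradd (chr8:107782475-107782531) read 12.2, 15.1, 12.6, 15.2, 12.5 and 11.6, and with TNFα differed by 0.04 and 0.01 on the log2 scale. Ripk1 (chr13:34125152-34125211), the kinase that decides between NF-kB and cell death, read 3.31, 3.45, 2.79, 2.74, 1.56 and 1.97. Its differences with TNFα, -0.25 and -0.33, were not called.

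The ubiquitin ligase Birc3 and the inhibitors Tnfaip3 and Cflar were all called higher with TNFα. Birc3 (chr9:7854409-7854468), which encodes a cIAP, read 0.803 and 1.08 on the WT and KO arrays without TNFα, 3.05 and 3.45 with it, and 3.67 and 4.79 in neutrophils. It was 3.80-fold higher with TNFα in WT and 3.20-fold higher in KO macrophages, and both arrays without TNFα were the lowest of the 6. Its other probe (chr9:7856162-7856221) had the same 2 arrays lowest, at 0.161 and 0.173, and the neutrophil arrays highest, at 0.990 and 1.59. Tnfaip3 (chr10:18720776-18720835) read 15.7 and 17.8 without TNFα, 43.7 and 46.4 with it, and 76.8 and 115 in neutrophils. The 3 pairs of arrays did not overlap, and TNFα went with a 2.78-fold higher level in WT and a 2.60-fold higher one in KO macrophages. Cflar, on the probe with its highest mean signal, was 4.71-fold and 4.80-fold higher, from 1.91 to 9.02 in WT and from 2.30 to 11.0 in KO macrophages.

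**Figure D2:**
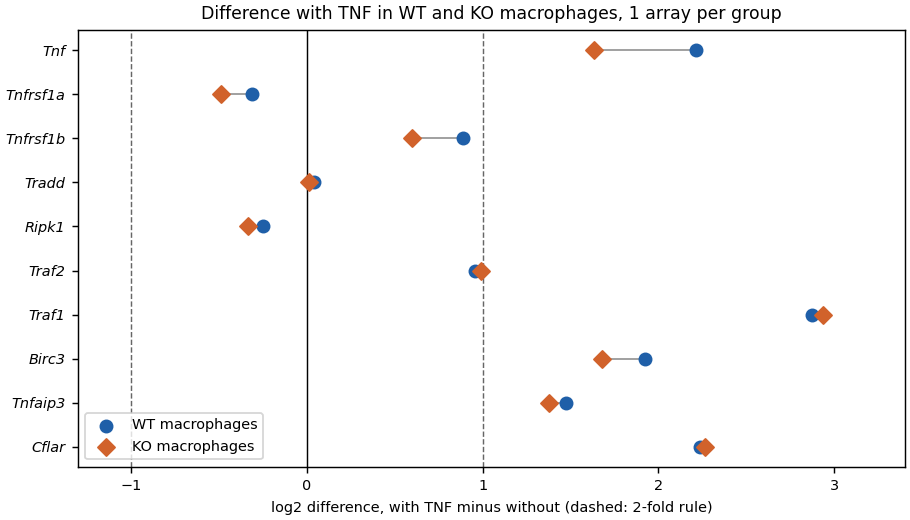
Log2 difference of each of the 10 genes with TNFα minus without it, in WT and in KO macrophages, 1 point per genotype; dashed lines mark 2-fold. Traf1 lies highest at 2.87 and 2.93, and Tnfrsf1a, Ripk1 and Tradd lie between -0.49 and 0.04.

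Cflar has 4 probes on the array, and they did not read alike. The first 30 of their 60 bases are printed because each stands for a different stretch of the gene; positions are on mm9 and the files give the transcripts.
Cflar NM_009805 (chr1:58789994-58790053): ctttcttgctgatgtataaattgcctcctt
Cflar NM_207653, first probe (chr1:58811116-58811175): gatttgacactgaatgtaacttgagactta
Cflar NM_207653, second probe (chr1:58810660-58810719): tcatggacaaagtgtatgcgtggaacagtg
Cflar ENSMUST00000149874 (chr1:58770546-58770605): gggacttgggaagttggagagctgactcct
The NM_009805 probe gave the values above, and read 3.32 in WT and 3.77 in KO neutrophils. The first NM_207653 probe read 1.72 and 1.76 without TNFα, 3.99 and 4.47 with it, and 0.809 and 0.985 in neutrophils, and the second read 0.406, 0.442, 0.937, 1.12, 0.195 and 0.246. The ENSMUST00000149874 probe read 1.20, 1.25, 1.46, 1.58, 3.02 and 2.26. With TNFα the log2 difference was therefore 2.24 in WT and 2.26 in KO cells on the NM_009805 probe, 1.21 and 1.34 on each NM_207653 probe, and 0.29 and 0.33 on the last. Between WT neutrophils and WT macrophages without TNFα the probes differed in direction, at 0.79 (NM_009805), -1.09 and -1.06 (NM_207653, called lower) and 1.33 (ENSMUST00000149874, called higher). In KO cells the same values were 0.71, -0.84, -0.84 and 0.85, none of which was called. The median of the 4 probe differences with TNFα was 1.21 in WT and 1.34 in KO macrophages. Taking the median level of the 4 probes on each array first, which mixes probes of unlike brightness, gave 0.75 and 0.84, short of the 2-fold rule.

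**Figure D3:**
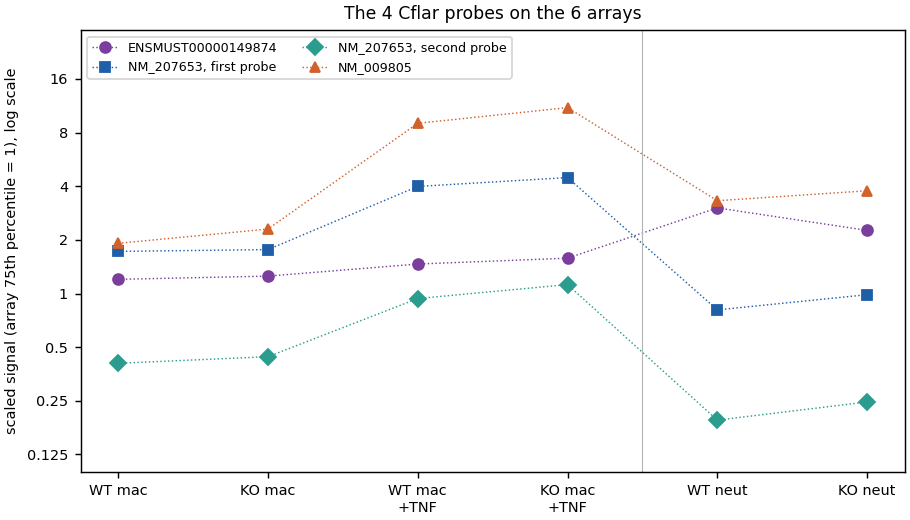
Scaled signal (log2 axis) of the 4 Cflar probes on the 6 arrays, 1 line per probe. The NM_009805 probe peaks with TNFα, at 9.02 and 11.0, both NM_207653 probes are lowest in neutrophils, and the ENSMUST00000149874 probe is highest there.

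Traf2 has 2 probes, and they also differed in neutrophils. Their first 30 bases are shown for the same reason.
Traf2, brighter probe (chr2:25374386-25374445): ggctgcacagccttgccaggtggcctgtat
Traf2, dimmer probe (chr2:25373541-25373600): ggattattgctctaggatttctccatagac
The dimmer probe read 0.135 and 0.113 on the WT and KO arrays without TNFα, 0.155 and 0.163 with it, and 0.661 and 0.568 in neutrophils. It was called higher in neutrophils in both genotypes, by 2.29 and 2.33 on the log2 scale, against 0.94 and 0.73 on the brighter probe.

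The rest of the pathway was described with 71 further genes in 7 lists, all of them on the array and 70 of them tested. With TNFα, 14 were called higher and 3 lower in WT macrophages (median log2 difference 0.21), and 16 higher and 3 lower in KO macrophages (median 0.18). Over all genes, 4.4% were called higher and 4.59% lower in WT cells, and 4.43% and 3.68% in KO cells. The classic late targets of TNF held the most calls, with 7 of 11 higher in WT and 8 of 11 in KO macrophages and medians of 1.61 and 1.50. This list was chosen as targets of TNF and with earlier results of these data known, so its counts carry no test. Among them, the matrix protease Mmp9 differed by 3.89 and 2.19, the adhesion molecule Icam1 by 2.70 and 2.48 and the mitochondrial superoxide dismutase Sod2 by 2.63 and 2.49. Of the 9 brakes and deubiquitinases, 2 were called higher, the A20 partner Tnip1 (2.08 and 1.99) and the NF-kB inhibitor Nfkbia (1.81 and 1.84).

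Below the receptor, calls were spread over several components. Of 15 genes of the receptor complex and its kinases, 2 were called higher in WT macrophages and 3 in KO macrophages, where 4.4% and 4.43% of all genes were, and the medians were 0.13 and 0.06. They were the adaptor Traf5 (2.05 and 1.88), Tank (1.03 and 1.35) and, in KO cells, Ikbkg (0.93 in WT and 1.02 in KO), the regulatory subunit of the IKK kinase. The 7 genes that control Tnf mRNA had medians of -0.39 and -0.45, and Zfp36l1 (-1.28 and -1.21) and Zfp36 (-1.01 and -1.25), which encode proteins that bind AU-rich mRNAs and speed their decay, were called lower. The calls of Tank and Zfp36 in WT cells were lost with quantile normalization and with normexp background correction, and that of Ikbkg with the latter. Of the 7 genes of TNF release and sister ligands, Lta was called higher, by at least 2.08 in WT cells, where it was not well above background without TNFα, and by 1.53 in KO cells, but not with normexp (0.68 and 0.58). Of 11 other receptors of the family tested, Fas was called higher (1.72 and 1.54) and Tnfrsf11a, the receptor RANK, lower (-1.12 and -1.05).

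**Figure D4:**
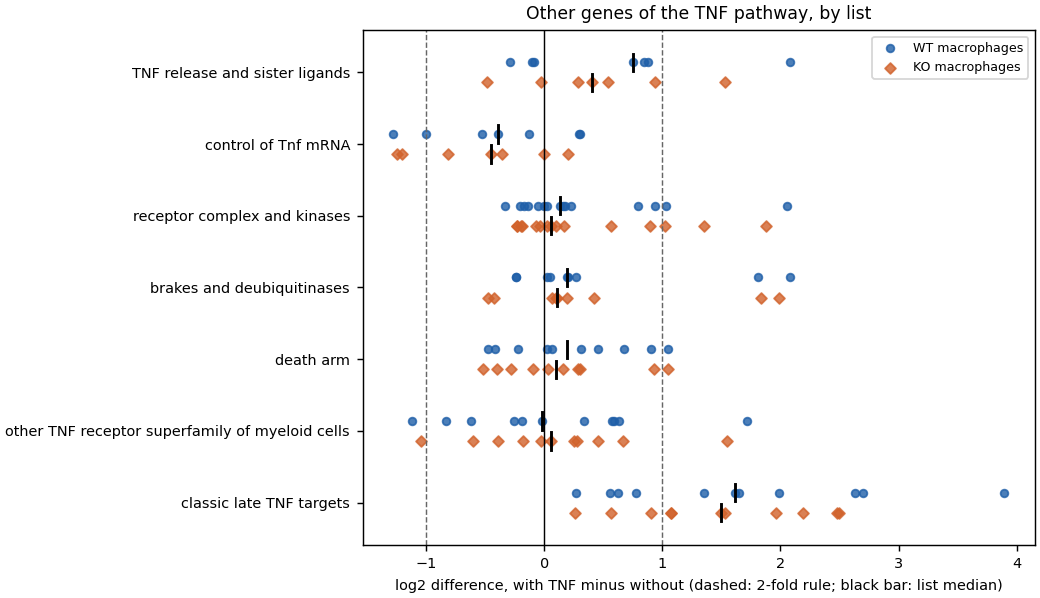
Log2 difference with TNFα minus without it for the genes of the 7 further lists, in WT and KO macrophages, 1 point per gene; dashed lines mark 2-fold and black bars the list medians. The late targets have medians of 1.61 and 1.50, and the receptor complex of 0.13 and 0.06.

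Macrophages and neutrophils differed over much of the transcriptome, and the 10 genes are read against that. In WT cells 4 of 10 genes were called higher and 2 lower in neutrophils than in macrophages without TNFα, where 25.9% and 17.6% of 25567 genes were called. In KO cells 4 were called higher and 1 lower, where 25% and 19.4% of 25171 genes were called. The median of the 10 genes was 0.87 in WT and 0.72 in KO cells, beside 0.21 and 0.15 over all genes, which quantile normalization moved to 0.04 and 0.03. Those called higher in both genotypes were Tnfaip3 (4.88-fold in WT and 6.43-fold in KO), Birc3 (4.57-fold and 4.45-fold), Tnf (3.16-fold and 5.35-fold) and Traf1 (2.16-fold and 2.18-fold). Tnfrsf1b was 11.3-fold lower in WT and 11.9-fold lower in KO neutrophils, at percentiles 2.3 and 2.2. Ripk1 was 2.12-fold lower in WT neutrophils, and its log2 difference in KO cells was -0.80. Tnfrsf1a differed by -0.86 in WT and -0.24 in KO cells. The call of Traf1 was lost with normexp background correction, at 0.92 and 0.95, and Traf2 gained one with quantile normalization, at 1.14 and 1.05.

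On the neutrophil arrays all 6 B cell markers were called higher than on the macrophage arrays in both genotypes, as were 4 of 4 tested erythroid markers in WT and 5 of 5 in KO cells. Plasma cell markers were called higher in 3 of 5 in both genotypes, T cell markers in 4 of 6 in WT and 3 of 6 in KO, and eosinophil markers in 3 of 4 tested in WT and 4 of 4 in KO. The plasma cell marker Sdc1 was called lower in both genotypes (-1.59 in WT and -3.83 in KO), as was the eosinophil marker Siglecf in WT (-1.04). All 6 mesothelial and fibroblast markers were called lower in both genotypes. The part of such cells in the values above was not tested. Of the 71 further pathway genes, 16 were called higher and 17 lower in WT neutrophils, and 17 and 18 in KO neutrophils. Over all genes, 25.9% were called higher and 17.6% lower in WT cells, and 25% and 19.4% in KO cells. The mRNA decay genes Zfp36 (3.91 in WT and 3.83 in KO) and Zfp36l1 (2.17 and 1.52), the inhibitor Nfkbia (2.95 and 3.16) and the adaptor Traf5 (2.15 and 2.04) were among those higher. So were Ltb (6.42 and 5.23) and Tnfrsf13c (6.68 and 4.27), both made by B cells. Of the 10 genes of the death arm, 4 in WT and 6 in KO neutrophils were called lower, where 17.6% and 19.4% of all genes were, among them the necroptosis effector Mlkl (-1.68 and -2.53) and the survival gene Bcl2l1 (-2.69 and -1.59), and Bid, a BH3-only protein, was called higher (1.28 and 1.56). Of the 11 late targets, 4 were called higher and 4 lower in both genotypes, with Mmp9 (1.78 and 1.61) among those higher. Of the 7 genes of TNF release and sister ligands, 2 were called higher and 3 lower in WT, and 3 and 2 in KO. Lta was among those higher (at least 6.92, and 6.47). The largest falls in the lists were also in late targets and release genes. Saa3 was called lower at -12.51 and -13.64 on the log2 scale, which are bounds on the fall, since it was not well above background in neutrophils. The chemokine genes Ccl2 (-7.34 and -8.50) and Ccl5 (-5.44 and -5.34) were lower as well, as were Timp3 (-6.76 and -5.04) and Adam17 (-2.08 and -1.43).

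Between genotypes, 0 of the 10 genes were called in any of the 3 conditions. Of all genes, 5.63% were called in either direction in macrophages without TNFα, 9.57% in macrophages with TNFα and 8.38% in neutrophils. Of the called genes, 72.4% were higher on the KO array in macrophages without TNFα, 72.2% with it and 43.5% in neutrophils. With quantile normalization these shares were 63.9%, 60.9% and 42.3%. The median of the 10 genes, KO minus WT, was 0.17, 0.11 and 0.36 in these conditions, beside 0.07, 0.06 and -0.01 over all genes. On the probe that represents each gene, 4 of the 10 were higher on all 3 KO arrays (Traf1, Birc3, Tnfaip3 and Cflar) and 1 was lower (Tnfrsf1b). Of 20151 genes, 26% and 16.7% were higher or lower on all 3. The largest of the 4 genes' differences on these probes were 0.48 for Traf1 in macrophages with TNFα and 0.58 for Tnfaip3 in neutrophils. Other probes did not all go the same way. The dimmer Birc3 probe was at -0.10 in macrophages with TNFα, and the ENSMUST00000149874 probe of Cflar at -0.42 in neutrophils. A limma fit of condition and genotype over the 6 arrays took the 3 WT and KO pairs as replicates, with 2 residual degrees of freedom. Its error is the spread of the genotype difference between conditions, not between mice of 1 group. For each gene, limma moved that spread toward the one typical of all genes, and the SE and p-values rest on the moved value. It called 0 of the 10 genes and 0 of 23744 genes (0%) at an adjusted p under 0.05, while 3 of the 10 and 3483 of all had an unadjusted p under 0.05.

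Tnfrsf1b was the member whose genotypes stood furthest apart in macrophages, at 1.55-fold lower on the KO array without TNFα and 1.89-fold lower with it. In neutrophils it was 1.63-fold lower. The 3 log2 differences of -0.63, -0.92 and -0.71 lay at percentiles 4.6, 3.2 and 7.7, and 0.491% of genes were lower on all 3 KO arrays by at least the smallest of them. That cut-off was taken from Tnfrsf1b itself, so the share gives its place among the genes and is no test. In the limma fit over the 3 pairs the difference was -0.75 ± 0.11 (SE), with an adjusted p = 0.20, and 0.10 to 0.76 over 9 alternatives. With TNFα the KO array, at 16.7, stood near the WT array without it, at 17.0. Markers of other cell types moved with genotype on these arrays. In KO macrophages without TNFα, 5 of 9 neutrophil markers and 4 of 5 tested B cell markers were called higher, and their summed scaled signals were 172 in WT and 447 in KO for neutrophil markers and 6.66 and 19.7 for B cell markers. With TNFα the counts were the same, and the sums were 220 and 483 for neutrophil markers and 4.79 and 14.4 for B cell markers. The macrophage sum on the WT and KO arrays was 1157 and 1349 without TNFα and 1119 and 1275 with it. The median macrophage marker differed more between these conditions, at 64.9 and 83.4 without TNFα and 26.5 and 28.3 with it. In KO neutrophils, 7 of 10 macrophage markers were called lower and 5 of 5 erythroid markers higher, with macrophage sums of 587 and 377 and erythroid sums of 333 and 820. There, 4 of 5 plasma cell markers (sums of 716 and 256) and 3 of 4 tested eosinophil markers (50.6 and 18.9) were called lower. The remaining tested eosinophil marker, Siglecf, was called higher (1.57). The neutrophil markers Cxcr2 (1.63) and Mmp8 (1.21), 2 of 9, were called higher, and of 6 T cell markers 1 was higher and 1 lower. The part of these cells in the Tnfrsf1b differences was not tested.

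In neutrophils, Tnf and Tnfrsf1a were higher on the KO array, Tnf by 0.84 and Tnfrsf1a by 0.78 on the log2 scale, at percentiles 94.5 and 93.6. In macrophages the same differences were 0.08 and 0.17 without TNFα and -0.50 and -0.01 with it. Tnf thus read higher on the KO array in neutrophils and lower in macrophages with TNFα, with neither past 2-fold and the difference between them not tested. The marker differences of the neutrophil arrays given above stand beside these values too, and their part in them was not tested. On the probes that represent them, the other 7 genes differed between genotypes by -0.13 (Traf2 in neutrophils) to 0.58.

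**Figure D5:**
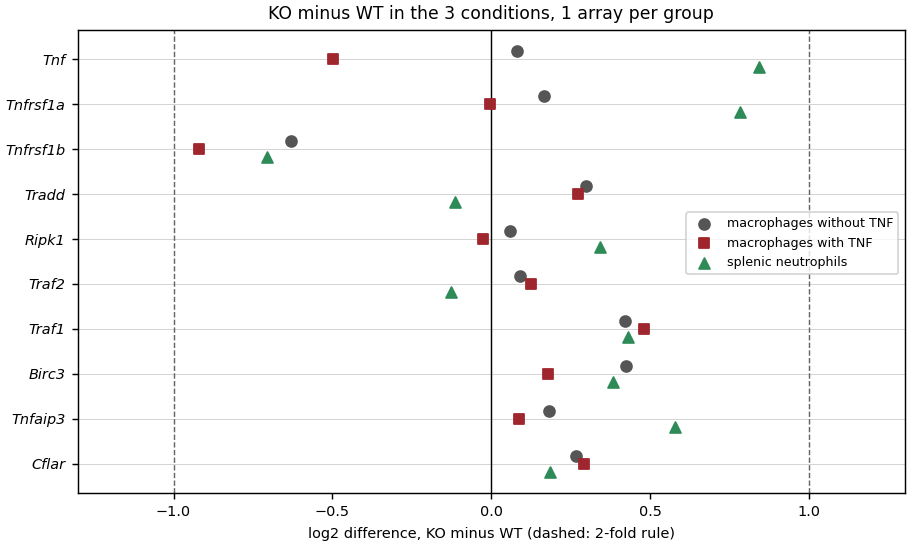
Log2 difference of each of the 10 genes, KO minus WT, in macrophages without TNFα, macrophages with TNFα and neutrophils, 1 point per condition; dashed lines mark 2-fold. Tnfrsf1b lies below 0 in all 3 conditions, at -0.63, -0.92 and -0.71, and no point passes a dashed line.

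The response to TNFα was also set side by side between genotypes. For the difference of the TNFα differences, KO minus WT, 0 of the 10 genes were called, as were 2.12% of 21739 genes. Their values ran from -0.58 for Tnf to 0.06 for Traf1, with a median of -0.09 beside -0.02 over all genes. Tnfrsf1b was at -0.29, Birc3 at -0.25 and Tnfrsf1a at -0.17, and the other 6 lay between -0.09 and 0.06. Of the further pathway genes, 69 were tested and 1 was called, Mmp9 at -1.70. Mmp9 read 1.29 and 2.81 on the WT and KO arrays without TNFα and 19.1 and 12.8 with it.

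Of the 7 genes of TNF release and sister ligands, Adam17 was called between genotypes in all 3 conditions and Timp3 in both conditions of macrophages. Adam17, the protease that cuts TNF and both its receptors from the cell surface, read 0.814 in WT and 2.67 in KO macrophages without TNFα, 1.37 and 3.89 with it, and 0.193 and 0.993 in neutrophils (chr12:21329378-21329437). Each KO array lay above its WT counterpart, by 3.28-fold, 2.84-fold and 5.15-fold. A second probe, which shares 52 bases with the first and is no independent reading, gave 1.90, 1.71 and 2.33 on the log2 scale. In the limma fit over the 3 pairs the difference was 1.86 ± 0.21 (SE), with an adjusted p = 0.19. Over 9 alternatives the adjusted p ran from 0.043, with normexp background correction, to 0.76. The part of the marker differences above in the Adam17 values was not tested. Timp3, an inhibitor of ADAM17, read 11.4 and 5.22 in macrophages without TNFα, 10.6 and 5.12 with it, and 0.105 and 0.159 in neutrophils. It was thus 2.18-fold and 2.06-fold lower on the KO arrays of macrophages, and not called in neutrophils, where its log2 difference was 0.60. Mesothelial and fibroblast markers, which the same arrays also held at a lower level in KO, had summed signals of 252 and 141 without TNFα and 244 and 116 with it. Of these 6 markers, 3 were called lower without TNFα and 2 with it, and their part in the Timp3 values was not tested. Rhbdf2, a carrier that brings ADAM17 to the cell surface, differed by 0.08, 0.17 and 0.27, and its relative Rhbdf1 by -0.58, -0.77 and 0.82.

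Of 70 genes of the 7 lists tested between genotypes, 5 were called higher and 1 lower in macrophages without TNFα, 2 and 1 in macrophages with TNFα, and 2 and 2 in neutrophils. These counts stand beside the 5.63%, 9.57% and 8.38% of all genes called in the same comparisons. Besides Adam17 and Timp3 they were the BAFF receptor gene Tnfrsf13c (2.06 without and 2.29 with TNFα), Ltb (1.31), Mmp9 (1.13) and the acute-phase gene Saa3 (1.35) in macrophages. In neutrophils they were the survival gene Bcl2l1 (1.09), the chemokine gene Ccl2 (-1.04, and -0.44 with normexp background correction) and the plasma cell receptor gene Tnfrsf17 (-3.02). Tnfrsf13c and Ltb are made by B cells, and the B cell marker sums of the macrophage arrays are given above. The plasma cell sum was 716 on the WT and 256 on the KO neutrophil array, with 4 of 5 markers called lower. The part of B and plasma cells in these differences was not tested.

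Profiles over the 6 arrays were also compared by the distance between log2 values centred on each gene's mean. The 12368 genes compared were well above background on all 6 arrays and had a symbol of letters and digits only. Clone, RIKEN, LOC and Gm names were left out. Nearest to Tnf were Gjc3 (distance 0.57), the inflammasome sensor Nlrp3 (0.57) and Cd33 (0.59), and Birc3 came at rank 4. Cd33 read 1.77, 1.58, 9.76, 6.97, 4.24 and 9.47 where Tnf read 1.67, 1.77, 7.76, 5.49, 5.27 and 9.46. Nearest to Traf1 were the formyl peptide receptor gene Fpr1 (0.59), Cflar (0.70) and Tlr2 (0.74). With 6 arrays in 6 groups these distances are a description of shape and carry no test.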

How the data were processed

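Total RNA of 6 samples, labelled with Cy3, was hybridised to 1 array each. The submitters' processing notes and the file headers name Agilent Feature Extraction 10.7.3.1, and the deposited values used here are its processed spot intensity, background-subtracted and on a linear scale, with no normalization between arrays. The 6 arrays share 1 slide and 1 scan, and probe positions are on mm9, per the file headers. The other deposited columns used, the marks for control, outlier and dim spots, are the software's own.

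From the 62976 spots, 59305 gene spots were kept, 101 to 121 per array were left out as outliers, and repeated spots were averaged. No spot was saturated. The intensity was turned to log2 and each array's 75th percentile over gene probes was subtracted. Names came through RefSeq genes of GRCm38.p6 (27235 probes by accession, 3581 by symbol, 565 by synonym), and 24300 kept the name in the file. Each gene is given by the probe whose mean over the 6 arrays was highest, and 4 of the 10 genes had more than 1 probe. A difference was called at 2-fold (log2 of 1) where the brighter array was well above background by the files' mark. Where the dimmer array was not, its higher value of own signal and lowest well-above-background signal gave a bound. The calls by size carry no p-value, and precision is limited by the number of arrays. An additive limma fit of condition and genotype (genes well above background on at least 3 arrays, Benjamini-Hochberg adjustment) was added after the data were seen.

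The members, lists, markers and motifs were chosen with earlier results of these data known. Of each list, at most the 3 largest called differences in each direction were named, and the nearest 3 profiles of Tnf and of Traf1. The values of 1 list gene are not reported here. The 8 comparisons were computed under 6 alternatives. The scripts, in Python 3.11.15 (numpy 2.4.6, pandas 2.3.3, matplotlib 3.10.9) and R 4.3.3 (limma 3.58.1 for normexp, offset 50), were tested on simulated data.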

Additional observations from a re-analysis of the deposited data

How the results depend on the processing

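The alternatives changed the scaling (quantile, or the median of probes detected everywhere), the background correction (normexp), the filter (detection on every array compared, or no filter on dim probes) or the choice of probe (a gene's median over its probes). In none of the 8 comparisons did they move the count of called genes among the 10 by more than 1.5 times. Of 480 values of single genes of the 10 under these alternatives, 466 kept their direction and their side of the 2-fold rule, 5 passed it, 4 fell short of it, and 5, none of them called, changed sign. Counts over all genes moved more. With normexp they were 438 (1388 as reported) for KO against WT in macrophages without TNFα, 819 (2289) with TNFα and 816 (2009) in neutrophils. For TNFα they were 1071 (2215) in WT and 963 (1949) in KO macrophages, and 123 (460) for the difference between these. With no filter on dim probes they were 3355, 4392, 4211, 4276, 3737 and 3859 in the same order, and 18863 (11112) for WT neutrophils against macrophages. The median over probes gave 957 for the difference of the TNFα differences. The limma fit over the 3 genotype pairs called 0 genes as reported and 7 with normexp, Adam17 among them, and 0 of the 10 genes under each of its 9 alternatives. Leaving out 1 pair, as some of these alternatives did, gave 0 genes each time. Those fits had fewer residual degrees of freedom and the full fit also called 0, so this count cannot show stability. The limit of these data is that no spread between mice of 1 group can be measured. Dim probes are uncertain, but all 16 probes of the 10 genes were well above background.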
